A study of Mus musculus with 30 samples.

Results

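Antisense non-coding units inside genes were examined in a table of nascent transcription from mouse embryonic stem cells. A unit was taken when it was listed as non-coding, overlapped a gene on the opposite strand, shared no base with a long terminal repeat (LTR) copy on its own strand, did not overlap the ribosomal precursor Rn45s, and had its 5′ end more than 2000 bp from the 5′ end of any gene on the opposite strand. The last condition leaves out transcripts that diverge from a gene's own start. Of 42029 non-coding units, 13678 overlapped a gene on the opposite strand, 12207 of these had no LTR copy on their strand, and 9714 met every condition. They lie in 5605 genes, called sense genes here; where a unit met several genes, the one with the longest overlap was taken.

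The measurement was TT-seq, which sequences RNA labelled with 4-thiouridine during a short pulse and so follows RNA as it is made. The cells are a line named dTKO with the genotype Suv39h1fl/fl; Suv39h2-/-; Setdb1fl/fl, which all libraries share, as they share the treatment label of auxin with dTAG13; both are ligands used to degrade degron-tagged proteins, and the labels name no tag and no Cre. The study asks how the loss of histone H3K9 methyltransferases alters transcription. Libraries were made at 0, 3, 12, 24 and 48 h of treatment, 3 biological repeats at each time, each sequenced in 2 runs (15 libraries, 30 GEO samples), and the labels do not say whether repeats are separate clones. Values below are scaled reads, that is reads per unit multiplied by the authors' factor for each library, and n = 3 for every mean ± SD.

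Antisense transcripts run across the opposite strand of a gene and can influence that gene through the act of transcription, by carrying chromatin regulators to it or by interfering with its promoter. Airn and Kcnq1ot1 silence imprinted genes of the paternal chromosome in this way, and Tsix restrains Xist in embryonic stem cells. H3K9 trimethylation, laid down by SETDB1 and by the SUV39H enzymes, keeps repeats and cryptic start sites silent.

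Each library held 37.1 to 42.3 M recovered reads over all units (M, mega), of which the 9714 antisense units took 0.652 to 0.745 M. All 10 embryonic stem cell markers were present at 0 h (42.4 to 537 scaled reads per kb, Sox2 highest), and those of primitive endoderm, trophectoderm and fibroblasts were at 8.85 per kb or less. At 48 h 8 of the 10 were lower than at 0 h (19.9 to 332 per kb over all 10), while Zfp42, at 243 against 134, and Fbxo15, at 225 against 182, were higher. The authors' scaling leaves a shift common to most genes. The median gene changed by −0.24, 0.18, −0.08 and −0.37 on the log2 scale at 3, 12, 24 and 48 h against 0 h, so changes are also given after rescaling each library to the median gene. The difference between a unit and its own sense gene within a library hardly depends on that scaling.

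To show where annotated antisense RNAs start, RefSeq promoter windows of GRCm38.p6 (250 bases before to 50 after the annotated start) were matched to the units; 96 windows on the unit's strand had their start within 500 bp of the 5′ end of 90 units. The windows of Airn, Kcnq1ot1, Meg3 and Firre are printed because these RNAs are described below. Capitals mark the motifs searched on both strands, which were the TATA box core (TATAAA), the CCAAT box (those letters), the GC box (GGGCGG) and the E-box (CACGTG); overlapping matches run together. Airn lies on the plus strand at chr17:12741061-12741360, its start 90 bases from the unit's 5′ end; Kcnq1ot1 on the minus strand at chr7:143296498-143296797, 54 bases away; Meg3 on the plus strand at chr12:109540746-109541045, 5 bases away; and Firre on the minus strand at chrX:50635272-50635571, 80 bases away.
Airn: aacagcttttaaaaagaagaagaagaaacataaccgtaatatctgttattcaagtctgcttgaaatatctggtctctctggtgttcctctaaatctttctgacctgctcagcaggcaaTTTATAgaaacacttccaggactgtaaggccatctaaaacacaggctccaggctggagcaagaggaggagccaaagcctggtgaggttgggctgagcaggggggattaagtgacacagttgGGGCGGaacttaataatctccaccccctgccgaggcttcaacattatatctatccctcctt
Kcnq1ot1: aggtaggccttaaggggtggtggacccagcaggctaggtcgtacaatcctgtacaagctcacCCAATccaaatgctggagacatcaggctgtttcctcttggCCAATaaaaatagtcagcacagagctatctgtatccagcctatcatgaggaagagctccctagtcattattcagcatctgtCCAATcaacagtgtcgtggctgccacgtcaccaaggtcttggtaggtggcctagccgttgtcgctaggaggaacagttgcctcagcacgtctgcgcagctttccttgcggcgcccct
Meg3: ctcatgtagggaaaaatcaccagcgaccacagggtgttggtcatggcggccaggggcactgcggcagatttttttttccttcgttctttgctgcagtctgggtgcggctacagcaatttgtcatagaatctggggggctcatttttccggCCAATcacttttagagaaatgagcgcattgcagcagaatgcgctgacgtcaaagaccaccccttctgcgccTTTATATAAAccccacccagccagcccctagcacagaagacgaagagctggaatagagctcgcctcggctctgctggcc
Firre: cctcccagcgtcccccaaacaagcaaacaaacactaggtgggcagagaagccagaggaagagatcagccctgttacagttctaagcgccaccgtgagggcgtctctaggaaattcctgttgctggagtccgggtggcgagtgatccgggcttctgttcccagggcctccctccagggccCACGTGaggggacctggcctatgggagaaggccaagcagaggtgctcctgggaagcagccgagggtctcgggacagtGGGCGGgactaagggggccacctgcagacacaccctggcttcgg

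The 4 windows differ in motifs and in CG content. Kcnq1ot1 has 3 CCAAT matches, Meg3 a TATA match a short way before its start, and Airn holds only 3 CG dinucleotides, against 9 in Kcnq1ot1, 12 in Firre, 13 in Meg3 and a median of 7 over the 32851 windows of the table. Among the 96 matched windows, 52.1% held the GC box, 37.5% the CCAAT box, 14.6% the E-box and 11.5% the TATA core, against 35.7%, 37.4%, 7.15% and 13.6% of all windows in the table. These are matches of letters and were not tested.

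MicroRNA hairpins lie on the strand of 10 of the units. Those over the miR-290 cluster, antisense to Nlrp12, and over the miR-302 cluster, antisense to Larp7, carry the microRNAs best known from pluripotent cells. RefSeq gave 11 and 9 mature sequences for these units. Left out here are the 5p forms, miR-293-3p (seed GUGCCGC) and miR-302c-3p (seed AGUGCUU). The sequences given hold no 3p form of miR-292a or miR-302a, and none from Mir291a, which GENCODE lists at the miR-290 unit. The remaining 3p forms given are printed with the seed (bases 2 to 8) in capitals.
mmu-miR-294-3p: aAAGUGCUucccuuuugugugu
mmu-miR-295-3p: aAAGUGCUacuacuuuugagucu
mmu-miR-302b-3p: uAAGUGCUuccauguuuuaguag
mmu-miR-302d-3p: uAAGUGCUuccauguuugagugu
mmu-miR-290a-3p: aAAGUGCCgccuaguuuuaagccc
mmu-miR-291b-3p: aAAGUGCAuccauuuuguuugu
mmu-miR-367-3p: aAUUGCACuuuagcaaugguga
The first 4, from both clusters, share the seed AAGUGCU, while the other three carry the seeds shown on their lines.

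Most antisense units were short and sparsely read. Their median length was 400 bp in a table that lists non-coding units in steps of 200 bp, 3301 of them were a single step long, and 94.9% lay wholly inside their sense gene. The 5′ end fell in an intron of the sense gene for 8498 units, in a UTR for 202 and in a coding exon for 185. It fell in an exon of the sense gene that is neither UTR nor coding for 196, and outside the gene for 360. The other 273 could not be placed because GENCODE M21 was not matched to their sense gene's name. On the unit's own strand GENCODE lists nothing at 8929 units, a long non-coding RNA at 477, a pseudogene at 202, a protein-coding gene at 73 and a small RNA at 33. The sense gene row of 92 units is named for a microRNA or small nucleolar RNA and spans up to 827677 bp, so the gene span given for those units is doubtful.

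Only 2587 units reached a mean of 10 scaled reads over the 15 libraries and were tested; the other 7127 (73.4%) stayed below it. A unit with few reads at 0 h could pass through its later values alone. Counts of units and of pairs are therefore also given with the minimum set on the 0 h libraries. That setting in turn leaves out units that were low at 0 h and rose. It also admits units through their 0 h values alone, which favours falls. At 0 h the median unit had 0.715 of its sense gene's scaled reads per kb over the 9699 units with a measurable gene, and 1211 (12.5%) had less than 10% of it. How the counter treated strand is not stated in the material used, and the transcripts of a gene and its antisense unit could be told apart only if strand was kept. At 0 h the Etl4 unit had 0.00516 and the Orc6 unit 0.00294 of its sense gene's level per kb. At the distance limit, the 100 units just inside (2001 to 2217 bp) had a median 0 h mean of 7.24 scaled reads and the 100 just outside (1802 to 1996 bp) 9.16.

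A pair of units dominated the signal without a large change. The unit antisense to Zc3h7a, a CCCH zinc finger gene (chr16:11143801-11144401, plus strand, intron, over the GENCODE small RNA Gm23935), averaged 166850 ± 5593 scaled reads at 48 h and 205757 ± 8603 at 0 h. The unit antisense to Jarid2, a cofactor of the Polycomb repressive complex PRC2 (chr13:44869401-44870201, minus strand, intron), averaged 102039 ± 2724 at 48 h and 116262 ± 8341 at 0 h. Together they held 53.9% of the scaled reads of all 9714 units, and neither change passed the test (log2 changes −0.30 and −0.19, limma adjusted p = 0.075 and 0.24). Sums over the units therefore describe mainly this pair and are not used.

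Most tested antisense units that changed were lower after treatment. Their share of rises was below that of non-coding units at large and above that of antisense units near gene starts. Non-coding units at large include these antisense units and also units with an LTR copy on their strand, which the rule left out. The shares thus do not compare like units, and the part of the rule in the difference was not tested. At 48 h against 0 h, 263 of 2587 units (10.2%) rose and 1405 (54.3%) fell, where 29.3% of all 15730 tested non-coding units rose and 39.4% fell (limma on log2(value + 1), Benjamini-Hochberg adjusted p under 0.05 over all non-coding units). The median log2 change was −0.60 for the antisense units and −0.28 for all non-coding units. After rescaling to the median gene, 411 rose and 857 fell, with 35.7% of all non-coding units higher and 22% lower, and the medians were −0.26 and 0.07. With the minimum set at 0 h alone, 133 of 3041 units (4.37%) rose and 1802 (59.3%) fell, where 12% of all 14506 non-coding units rose and 51.4% fell, and 131 of the 263 risen units had a 0 h mean under 10.

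The number of falls grew with time on the deposited scaling, and after rescaling it was near level from 12 h on. At 3 h, 57 units rose and 254 fell (7.74% and 8.06% of all non-coding units), at 12 h 302 rose and 532 fell (29.4% and 11.1%), and at 24 h 285 rose and 1034 fell (30.4% and 24.8%). The 3 h falls depended on the scaling and on single libraries. After rescaling 98 units rose and 54 fell at 3 h (11% and 1.85% of all non-coding units), and edgeR called 91 and 91. Without 3 h replicate 2, 0 h replicate 3, 0 h replicate 2 or 3 h replicate 1, the total called at 3 h was 150, 157, 174 or 197, against 311 with all libraries. After rescaling, 248 rose and 929 fell at 12 h (26.8% and 21.7% of all non-coding units), and 338 rose and 943 fell at 24 h (33.2% and 22.8%). The median log2 change at 3, 12, 24 and 48 h was −0.31, −0.22, −0.41 and −0.60 on the deposited scaling and −0.08, −0.39, −0.33 and −0.26 after rescaling. With the minimum set at 0 h alone, 25 rose and 252 fell at 3 h (2.66% and 8.27% of all non-coding units), 186 and 603 at 12 h (13.5% and 13%), and 156 and 1340 at 24 h (13.1% and 32.8%). In the authors' deposited table, 343 of the 9714 units were marked up at 48 h and 698 down, where 16.7% of all 42029 non-coding units were marked up and 6.24% down. The authors' deposited table marked 15 up and 4 down at 3 h (1.21% and 0.0262% of all), 153 and 44 at 12 h (8.15% and 0.316%), and 251 and 306 at 24 h (13.5% and 2.55%).

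**Figure D1:**
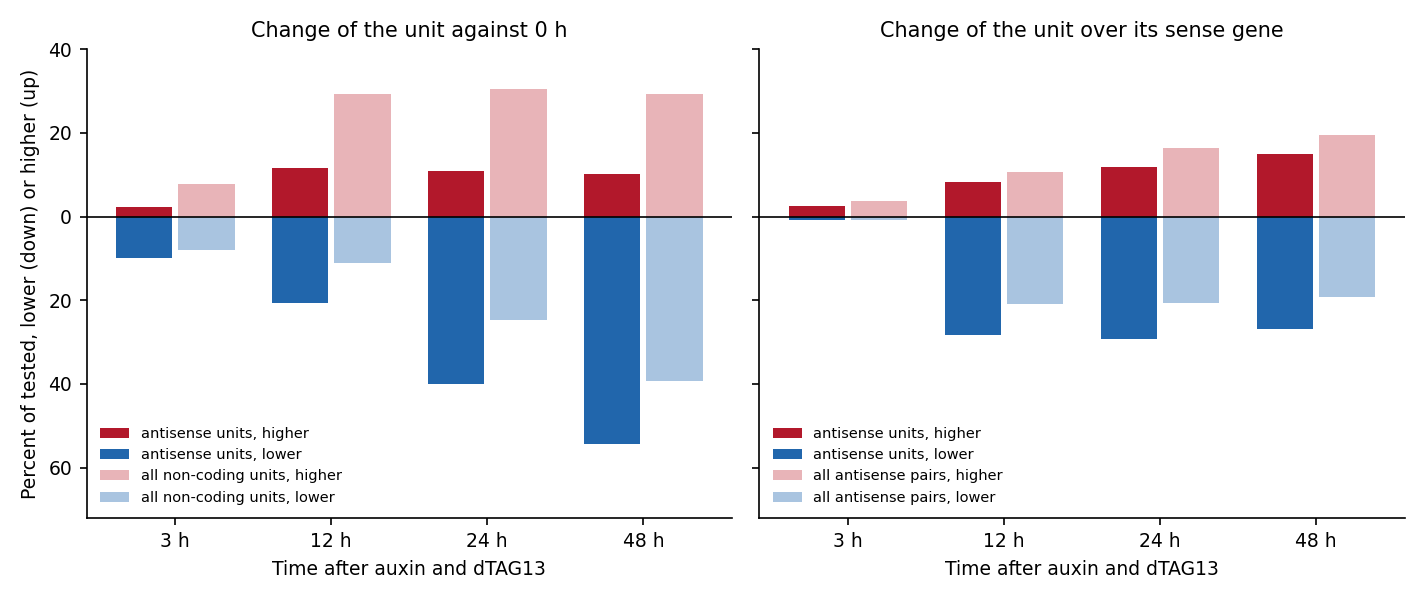
Percent of tested antisense units (dark bars) called higher (red, above 0) or lower (blue, below 0) at 3, 12, 24 and 48 h against 0 h, beside all tested non-coding units (left, pale bars), and the same for the change of a unit over its sense gene beside all antisense pairs (right, pale bars). At 48 h, 54.3% of the antisense units were lower and 10.2% higher, while 26.8% of the pairs were lower and 14.9% higher.

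Set against their own sense genes, antisense units also fell more often than they rose from 12 h on. Of 2478 units whose sense gene could be tested as well, 663 were lower relative to the gene at 48 h and 369 higher, where 19.2% of all 4858 antisense pairs were lower and 19.4% higher; the 4858 include units near gene starts and units with an LTR copy. The corresponding counts were 21 lower and 63 higher at 3 h (0.844% and 3.81% of all pairs), 700 lower and 205 higher at 12 h (20.9% and 10.7%), and 727 lower and 295 higher at 24 h (20.7% and 16.3%). The median difference was −0.02, −0.34, −0.29 and −0.18 at 3, 12, 24 and 48 h, and with a pseudocount of 8 in place of 1 the 48 h median was −0.06. With the minimum set at 0 h alone, 794 of 2932 pairs were lower and 266 higher at 48 h (20.7% and 11.5% of all 5152 pairs). The counts lower and higher were then 14 and 37 at 3 h (0.543% and 1.81%), 851 and 131 at 12 h (22.5% and 5.22%), and 891 and 198 at 24 h (22.5% and 9.01%).

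Unit and gene changed in all combinations. At 48 h, 398 of the 5345 tested sense genes rose and 3133 fell, where 7.65% of all tested genes rose and 58.4% fell. The counts were 18 and 1045 at 3 h (0.636% and 13.5% of all genes), 749 and 123 at 12 h (12.9% and 2.07%), and 385 and 766 at 24 h (7.21% and 12.2%). Rescaling changed this balance. After it 1876 sense genes rose and 1647 fell at 48 h (29.6% and 29.2% of all genes). The counts were 266 and 709 at 3 h (5.19% and 7.87%), 1052 and 994 at 12 h (16.2% and 14.6%), and 1369 and 1422 at 24 h (21.9% and 21.5%). On the deposited scaling both unit and gene fell in 893 pairs at 48 h and both rose in 62. In 81 pairs the unit rose while the gene fell, and in all 81 the difference itself passed the test. In 56 pairs the unit fell while the gene rose, again with the difference called in all 56. After rescaling both fell in 343 pairs and both rose in 205, the unit rose over a falling gene in 71, and it fell under a rising gene in 226, with the difference called in all 71 and all 226. A unit and gene called in opposite directions pass the test of the difference almost by construction. These combinations were not counted over all antisense pairs, so they are not read as particular to these units. Across the 2478 pairs, which come from 2027 genes, share libraries and so are not independent, Pearson's r between unit and gene change was 0.27 at 48 h.

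**Figure D2:**
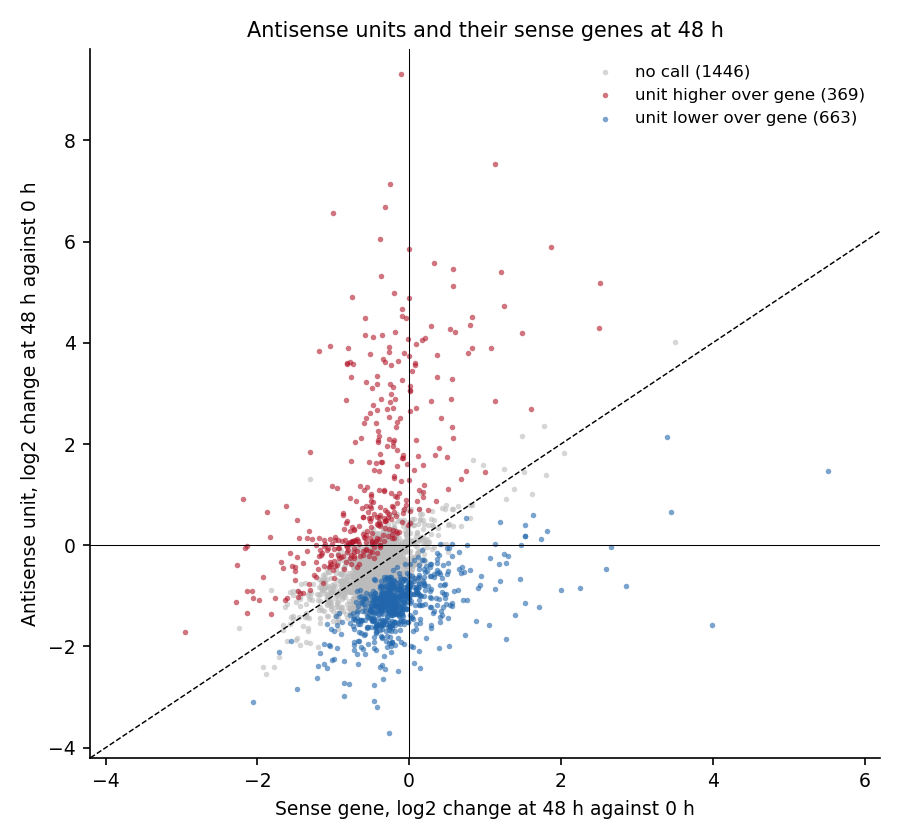
Log2 change at 48 h against 0 h of each antisense unit (vertical) and its sense gene (horizontal) for 2478 pairs; the dashed line marks equal change, red points are the 369 pairs in which the unit was called higher relative to the gene and blue points the 663 called lower. Units that rose by over 4 on the log2 scale mostly stand over genes near 0, and the far right holds genes that rose over a unit that did not keep pace.

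The strongest rises started from almost nothing. Of the risen units named in this paragraph and the next 4, only those antisense to Dr1 and Nsf had a 0 h mean of 10 or more. The others were tested only because of their later values, so their changes are described without a p. The unit antisense to Orc6, a subunit of the origin recognition complex (chr8:85302601-85309401, minus strand, 5′ end beyond the gene's 3′ end), had 1563, 1642 and 1590 scaled reads at 48 h, against 1.63, 4.99 and 0 at 0 h. It averaged 2.21, 11.4, 83.1, 492 and 1598 scaled reads at 0, 3, 12, 24 and 48 h, while Orc6 itself averaged 884 at 48 h and 953 at 0 h. The difference between unit and gene at 48 h was 9.43 ± 0.35 (SE) on the log2 scale. By 48 h the antisense unit thus had more scaled reads than the gene it crosses.

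Dr1 encodes the negative cofactor NC2 beta of TATA-binding protein, and its antisense unit spans the whole gene (chr5:108261801-108285801, minus strand). It had 4315, 4519 and 4165 scaled reads at 48 h, against 24.4, 36.6 and 30.0 at 0 h, with no overlap between the times. The log2 change was 7.13 ± 0.20 (limma adjusted p = 2.0e-25), while that of Dr1 was −0.25 (adjusted p = 0.070). At 12 h the unit averaged 1329 ± 215, a log2 change of 5.41.

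Antisense to C6, a complement component, the unit (chr15:4774401-4834801, minus strand) had 831, 912 and 883 scaled reads at 48 h, against 3.25, 2.5 and 6.0 at 0 h. C6 itself had 14, 20.9 and 18.3 at 48 h, against 11.4, 8.32 and 4.29 at 0 h, a log2 change of 1.13 (limma adjusted p = 0.00055). In Etl4, a gene of axial skeleton development, the unit (chr2:20703401-20722801, minus strand, intron) had 371, 396 and 355 at 48 h, against 6.50, 5.82 and 2.57 at 0 h. Etl4 itself changed by −0.39 on the log2 scale (limma adjusted p = 0.0041), or by −0.03 after rescaling (adjusted p = 0.56).

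Several of these units had 1 read or a few at 0 h. The Commd2 unit (chr3:57643401-57647001, plus strand) held 492 reads over the 3 libraries at 48 h and 1 at 0 h, a ratio of 448 with a 95% counting interval of 80.0 to 17725. The Acoxl unit (chr2:127983201-127986801, minus strand, intron) held 459 and 1, a ratio of 418 (74.6 to 16538), and the Clec2h unit (chr6:128671801-128680201, minus strand) 302 and 1, a ratio of 275 (49.0 to 10894). These intervals cover counting error only, with the 3 libraries of a time pooled. They cover neither the spread between repeats nor the entry of these units through their later values. Acoxl, an acyl-CoA oxidase-like gene, fell by 1.00 (limma adjusted p = 2.7e-10) while its antisense unit was higher. Clec2h, a C-type lectin gene, and Ccdc144b, whose intron holds a unit at 135 ± 2.16 scaled reads at 48 h and 1.10 ± 0.451 at 0 h, had too few reads of their own to be tested.

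Other units rose early or late. At 3 h the unit antisense to Ccdc28a (chr10:18222201-18228401, plus strand, intron) already had 10.8, 12.1 and 10.1 scaled reads, against 0.813, 0.832 and 1.71 at 0 h. That antisense to Epb41l5, a cell polarity gene (chr1:119581601-119588201, plus strand, intron), had 8.78, 7.0 and 10.1, against 2.44, 0.832 and 0.857. The Epb41l5 unit averaged 55.5 at 12 h, 62.4 at 24 h and 37.2 at 48 h. In contrast to these, the unit antisense to Nsf, a vesicle fusion ATPase (chr11:103928201-103942001, plus strand, intron), fell at 3 h and was far above the 0 h level at 48 h, averaging 33.3, 14.9, 23.8, 38.1 and 139 scaled reads at 0, 3, 12, 24 and 48 h. Nsf fell by 0.72 at 48 h (limma adjusted p = 4.4e-08), and the difference between unit and gene was 2.76 ± 0.24 (adjusted p = 1.7e-09).

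The largest falls were smaller than the largest rises among the named units and began from measurable levels. The minimum mean and the scale used largely set this contrast. To be tested, a unit that fell needed reads at 0 h, and that level limits its fall. A unit that rose could enter through its later values from almost nothing. The contrast is therefore not read as a property of the units. Inside Dgkg, a diacylglycerol kinase gene, the unit (chr16:22637601-22642201, plus strand, intron) had 5.17, 1.55 and 3.82 scaled reads at 48 h, against 39.0, 39.1 and 28.3 at 0 h, and Dgkg itself fell by 2.05 on the log2 scale. A unit antisense to Epb41l4a (chr18:33839601-33851001, plus strand, intron) had 21.4, 22.5 and 29.8 at 48 h, against 241, 225 and 179 at 0 h. Epb41l4a fell by only 0.47, so the unit was lower relative to the gene by 2.61 ± 0.14 (limma adjusted p = 3.6e-13).

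Inside Prdm1, the gene of the repressor BLIMP1, the unit (chr10:44441201-44450201, plus strand, 5′ end in a coding exon) had 10.3, 15.5 and 10.7 scaled reads at 48 h, against 72.3, 84.0 and 80.6 at 0 h. Prdm1 fell by 1.21 and the unit by 2.62, and the difference of −1.41 ± 0.17 passed the test (limma adjusted p = 4.5e-07). In Tfeb, a lysosomal transcription factor gene, the unit (chr17:47735001-47739401, minus strand) fell by 2.54 beside a fall of Tfeb by 1.88, and there the difference did not pass (adjusted p = 0.071, or 0.046 after rescaling). The Scn8a and Zfp536 units, inside a sodium channel gene and a zinc finger gene, fell by 2.64 and 2.76; Scn8a and Zfp536 themselves changed by −0.34 and −0.47, or by 0.02 and −0.11 after rescaling (adjusted p = 0.74 and 0.53).

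Some units were lower relative to the gene over a gene that rose. Dpep1, a membrane dipeptidase gene, had 177, 155 and 178 scaled reads at 48 h, against 9.75, 9.98 and 9.43 at 0 h. The unit antisense to it (chr8:123182401-123191801, minus strand, running past the gene's 5′ end) had 31.8, 31.8 and 23.7 at 48 h, against 83.7, 97.3 and 83.2 at 0 h. This was the widest separation in that direction among the named pairs, a difference of −5.57 ± 0.20 (limma adjusted p = 1.3e-16). In Myrip, a myosin-linker gene, the unit (chr9:120344401-120345801, minus strand, intron) fell by 1.57 while Myrip rose by 1.06.

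**Figure D3:**
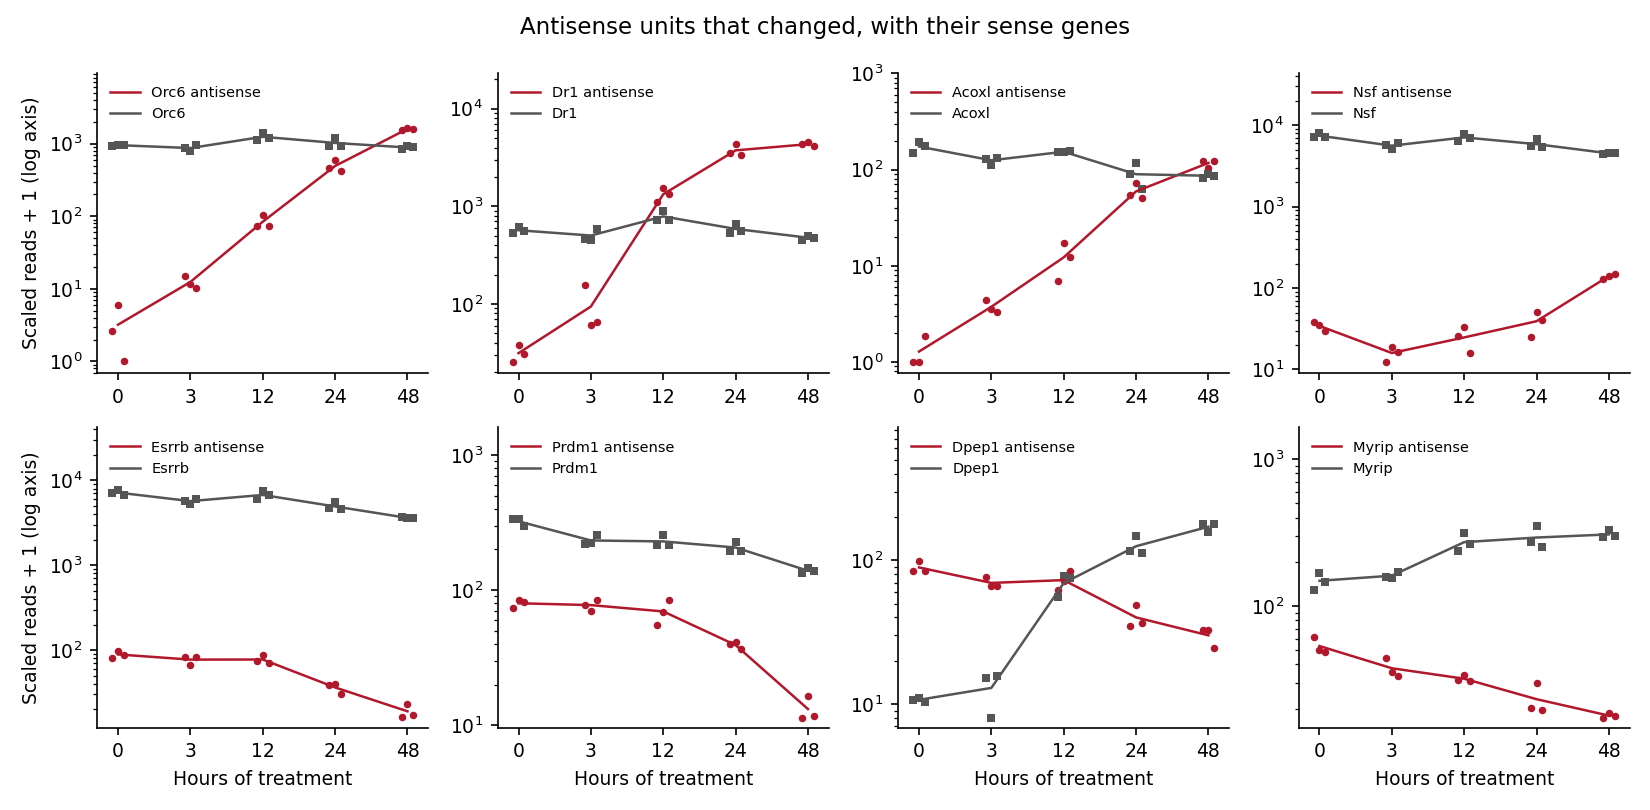
Scaled reads + 1 on a log axis in each of the 15 libraries (points) and their mean (lines) at 0, 3, 12, 24 and 48 h for 8 antisense units (red) and their sense genes (grey). The Orc6 and Dr1 units climb past their genes while the genes stay within a narrow band, the Esrrb and Prdm1 units fall late, and Dpep1 rises past its unit.

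Units over antisense RNAs with names differed in their changes, and several changed little at 48 h after rescaling. These units were chosen after their values were seen. The unit over Airn (chr17:12741401-12828201, plus strand, 5′ end in an intron of Igf2r and running past its 5′ end) had 708, 750 and 812 scaled reads at 48 h, against 532, 606 and 487 at 0 h. Igf2r, the imprinted receptor gene that Airn silences on the paternal copy, had 1207, 1228 and 1255 at 48 h, against 1502, 1631 and 1487 at 0 h. The libraries of the 2 times did not overlap for either, and the difference between unit and gene was 0.81 ± 0.08 on the log2 scale (limma adjusted p = 4.8e-09). Airn rose by 0.48 (adjusted p = 0.00057), or by 0.85 after rescaling, while Igf2r changed by −0.32 (adjusted p = 0.017), or by 0.04 after rescaling (adjusted p = 0.35).

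The unit over Tsix (chrX:103431401-103490801, plus strand, spanning Xist) averaged 807, 617, 1359, 1108 and 817 scaled reads at 0, 3, 12, 24 and 48 h. Its 12 h libraries had 1195, 1531 and 1349, all above the 780, 903 and 738 at 0 h, a log2 change of 0.75 ± 0.12 (limma adjusted p = 4.6e-06). At 48 h the change was 0.02 (limma adjusted p = 0.88), or 0.38 after rescaling (adjusted p = 2.2e-05). Xist stayed low throughout, with 20.7, 23.2 and 27.5 scaled reads at 48 h and 16.3, 21.6 and 15.4 at 0 h. Its own change of 0.41 did not pass the test (limma adjusted p = 0.16) but did after rescaling (0.75, adjusted p = 0.0029). Per kb, the Tsix unit was 17.5 times as high as Xist at 0 h.

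The unit over Kcnq1ot1 (chr7:143198801-143296601, minus strand, wholly inside Kcnq1) had 2577, 2732 and 2650 scaled reads at 48 h, against 3567, 3945 and 3487 at 0 h. Its fall of 0.46 (limma adjusted p = 0.00058) was close to the shift of the median gene, and after rescaling the change was −0.10 (adjusted p = 0.053). Kcnq1, a potassium channel gene, averaged 42.5 at 48 h and 68.1 at 0 h, and the difference in change between unit and gene did not pass the test (0.17 ± 0.14, limma adjusted p = 0.34). The unit over Meg3, Rian and Mirg (chr12:109541001-109752001, plus strand), which spans Rtl1 and holds 54 microRNA hairpins, averaged 13130 ± 858 at 48 h and 16942 ± 1976 at 0 h. On the log2 scale it fell by 0.36 (limma adjusted p = 0.014), and after rescaling the change was −0.0017; Rtl1 had at most 1.71 scaled reads in any library.

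The unit over Nespas (chr2:174257601-174296601, minus strand, antisense to Gnas and carrying the Mir296 and Mir298 hairpins) averaged 3092 ± 172 at 48 h and 3979 ± 137 at 0 h. Its change of −0.36 was −0.0030 after rescaling (limma adjusted p = 0.96). Relative to Gnas, which encodes a G protein alpha subunit, the unit was lower by 0.31 ± 0.06 (limma adjusted p = 0.00015). The unit over Trp53cor1, a long RNA of the p53 response also called lincRNA-p21 (chr17:29055601-29093401, minus strand), had 186, 196 and 186 scaled reads at 48 h, against 261, 284 and 256 at 0 h. Cdkn1a, the p21 gene that the listed unit overlaps, had 1137, 1332 and 1231 at 48 h, against 945, 958 and 968 at 0 h. Unit and gene went opposite ways, with a difference of −0.85 ± 0.09 (adjusted p = 2.3e-08), though the unit's own fall of 0.49 was −0.13 after rescaling (adjusted p = 0.14).

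The unit over Firre, a nuclear RNA that takes part in chromosome organisation (chrX:50554601-50635401, minus strand, antisense to the row GM35612), fell beyond the common shift. It had 1069, 1065 and 1125 scaled reads at 48 h, against 2068, 2404 and 2154 at 0 h, a log2 change of −1.02 ± 0.11 (limma adjusted p = 7.4e-10) or −0.66 after rescaling. The unit over Snhg8, a small nucleolar RNA host (chr3:123498801-123508401, minus strand, antisense to Prss12), averaged 1231 ± 62.7 at 48 h and 1727 ± 81.8 at 0 h. These means are on the deposited scaling, on which the median gene changed by −0.37 at 48 h. No rescaled value is given for this unit, so its fall is not read as beyond the common shift.

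The units over the clusters whose microRNAs are printed above also differed. The miR-290 unit (chr7:3192201-3234001, plus strand) had 9050, 10412 and 9436 scaled reads at 48 h, against 10066, 10421 and 10233 at 0 h. Its change of −0.09 did not pass the test (limma adjusted p = 0.47); after rescaling it was 0.27 (adjusted p = 6.0e-05). Nlrp12, an innate immune regulator gene on the other strand, fell to 359 at 48 h, against 630 at 0 h. The miR-302 unit (chr3:127544801-127549201, plus strand, in an intron of Larp7, which encodes a 7SK RNA-binding protein) averaged 1090, 593, 512, 518 and 677 scaled reads at 0, 3, 12, 24 and 48 h. Its 12 h values of 426, 585 and 524 lay well below the 1072, 1120 and 1079 at 0 h. Relative to Larp7 the unit was lower by 0.85 ± 0.08 at 12 h (limma adjusted p = 3.1e-08) and by 0.24 ± 0.08 at 48 h (adjusted p = 0.022). The 48 h difference did not pass with no minimum mean, with no trend, without 0 h replicate 3 or without 48 h replicate 1 (limma adjusted p = 0.060 to 0.11).

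Among the other units with microRNAs, that over Nr6a1os with the Mir181a-2 and Mir181b-2 hairpins (chr2:38823201-38857601, plus strand, antisense to Nr6a1, an orphan nuclear receptor gene) rose to 209 ± 22.8 at 48 h, against 114 ± 16.4 at 0 h (log2 change 0.87, limma adjusted p = 2.5e-05). The unit with Mir8110, antisense to the zinc finger gene Sall1 (chr8:89000601-89032401, plus strand), fell to 154 ± 2.73 at 48 h, against 315 ± 19.5 at 0 h. The unit with the Mir23a, Mir27a and Mir24-2 hairpins, antisense to Zswim4, averaged 497 ± 48.2 at 48 h and 473 ± 24.8 at 0 h. Its change of 0.07 did not pass the test (limma adjusted p = 0.62), but did after rescaling (0.43, adjusted p = 1.3e-05).

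**Figure D4:**
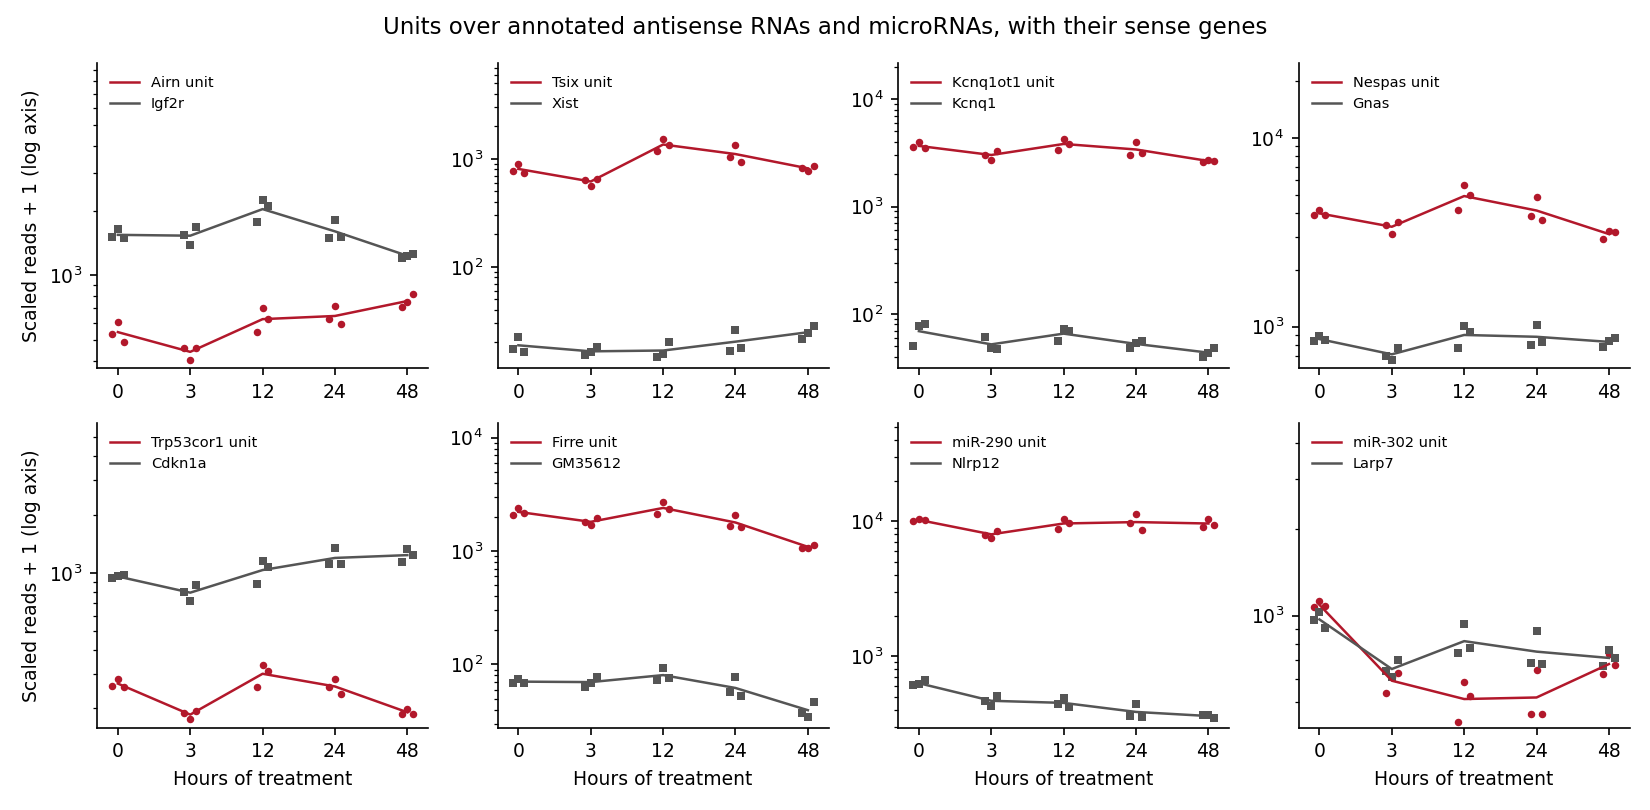
Scaled reads + 1 on a log axis in each of the 15 libraries (points) and their mean (lines) at 0, 3, 12, 24 and 48 h for 8 units over annotated antisense RNAs or microRNA clusters (red) and their sense genes (grey). The Airn unit is above its 0 h level at 48 h and Igf2r below its own on the deposited scaling (after rescaling Igf2r changed by 0.04), the Tsix unit peaks at 12 h over a low Xist, and the miR-302 unit is lowest at 12 and 24 h.

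Lists of sense genes were read by role, beside the 10.2% of tested antisense units that rose and the 54.3% that fell at 48 h at large. After rescaling these shares were 15.9% and 33.1%. Among 16 tested units in pluripotency genes none rose and 12 fell (0 and 8 after rescaling), and among 16 in heterochromatin and silencing factors none rose and 8 fell (2 and 5 after rescaling). Within Esrrb, an orphan nuclear receptor gene of naive pluripotency, the unit at chr12:86500201-86506401 (minus strand, 5′ end in a coding exon) had 15.5, 22.5 and 16.0 scaled reads at 48 h, against 78.8, 97.3 and 87.4 at 0 h. It fell by 2.24 and Esrrb by 0.99, a difference of −1.25 ± 0.15 (limma adjusted p = 4.5e-07), and a neighbouring unit fell by 1.69. The Tet2 unit, in a 5-methylcytosine oxidase gene, fell by 1.96 beside a fall of Tet2 by 1.44, a difference that did not pass (limma adjusted p = 0.15). The Dnmt3a unit, in a DNA methyltransferase gene, fell to 9.32 ± 2.86 at 48 h, against 34.9 ± 4.23 at 0 h.

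Of 15 tested units in imprinted genes 2 rose and 6 fell (4 and 3 after rescaling), and of 3 in p53 targets 1 rose and 2 fell (1 and 1). Of 6 in genes of the transcription and RNA processing machinery none rose and 3 fell (0 and 2 after rescaling), and of 3 in epiblast and germ layer regulators none rose and 3 fell (0 and 0). In Copg2, a coatomer gene, the unit (chr6:30864201-30883801, plus strand, intron) had 128, 150 and 170 scaled reads at 48 h, against 7.32, 11.6 and 10.3 at 0 h. Copg2 itself changed by −0.27 (limma adjusted p = 0.048), or by 0.09 after rescaling (adjusted p = 0.032). The unit antisense to Tigar, a p53-induced regulator of glycolysis (chr6:127100401-127107601, plus strand, over the long RNA Platr31), had 38.4, 41.8 and 39.7 at 48 h, against 2.44, 7.49 and 5.14 at 0 h. Tigar fell by 0.83 (limma adjusted p = 4.4e-10), and the difference was 3.70 ± 0.39. The Copg2 and Tigar units had 0 h means under 10 and were tested only because of their later values.

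Risen units were longer than fallen ones. The median length was 5600 bp for the 263 units that rose at 48 h and 800 bp for the 1405 that fell. Of 616 tested units over 5000 bp, 22.6% rose and 53.9% fell, while of 368 units of 200 bp 0.815% rose and 56.5% fell. With the minimum set at 0 h alone the medians were 7600 bp for 133 risen and 600 bp for 1802 fallen units, and 15.3% of 562 units over 5000 bp and 0.592% of 507 units of 200 bp rose. Longer units hold more reads, and the part of read number in these shares was not tested. Units whose 5′ end lay beyond the gene's 3′ end rose in 24.1% of cases (67 of 278), against 6.34% for a 5′ end in the first of 3 equal parts of the gene, 8.72% in the middle and 10.98% in the last. The shares that fell were closer, at 52.2%, 52.9%, 54.9% and 56.2% in the same order. With the minimum set at 0 h alone the shares that rose were 16.9%, 2.82%, 2.93% and 4.02%. This setting and the same for length were added after the data were seen. Shares by position were not split by length, so position and length cannot be told apart here.

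The share that rose differed little with the distance to an LTR copy and more with the repeats a unit holds. By the distance to the nearest LTR copy upstream on the same strand, 12.7% of 322 units rose at 48 h with a copy within 5000 bp, 10.8% of 1105 with one at 5000 to 50000 bp and 8.88% of 1160 farther away, and the median log2 changes were −0.60, −0.59 and −0.60. Of 134 units that hold a LINE copy on their strand 26.1% rose and 38.1% fell, against 9.29% that rose among units without one. Of 187 that hold an LTR copy on the opposite strand 24.6% rose and 54.0% fell, against 9.04% that rose without one. With the minimum set at 0 h alone, 13.4% of 119 units with and 4.00% of 2922 without such a LINE copy rose, and 16.6% of 169 with and 3.66% of 2872 without an opposite LTR copy. Longer units have more room for a repeat copy, and 22.6% of units over 5000 bp rose. The shares by repeats held were not split by length, so the 2 features cannot be told apart here. A further unit that holds a same-strand LTR copy lay within 5000 bp upstream of 28 tested units, of which 9 (32.1%) rose, against 10.3% of those with no unit upstream. It was 2 of 25, against 4.34% of 2491, with the minimum set at 0 h alone. The unit antisense to A830018L16Rik (chr1:11603801-11615001, minus strand, intron) starts 4352 bp from an ERVB7_1-LTR_MM copy, and both were higher at 48 h. That copy averaged 81.1 ± 11.9 scaled reads at 48 h and 3.84 ± 3.45 at 0 h, and the unit 172 ± 17.5 at 48 h and 3.04 ± 1.24 at 0 h, under the minimum at that time. Of the copies nearest to the named units, most had a mean of at most 5 scaled reads, including a MERVL-int copy 529 bp from the Tigar unit at 2.04 ± 1.60 at 48 h and 0.826 ± 0.832 at 0 h.

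**Figure D5:**
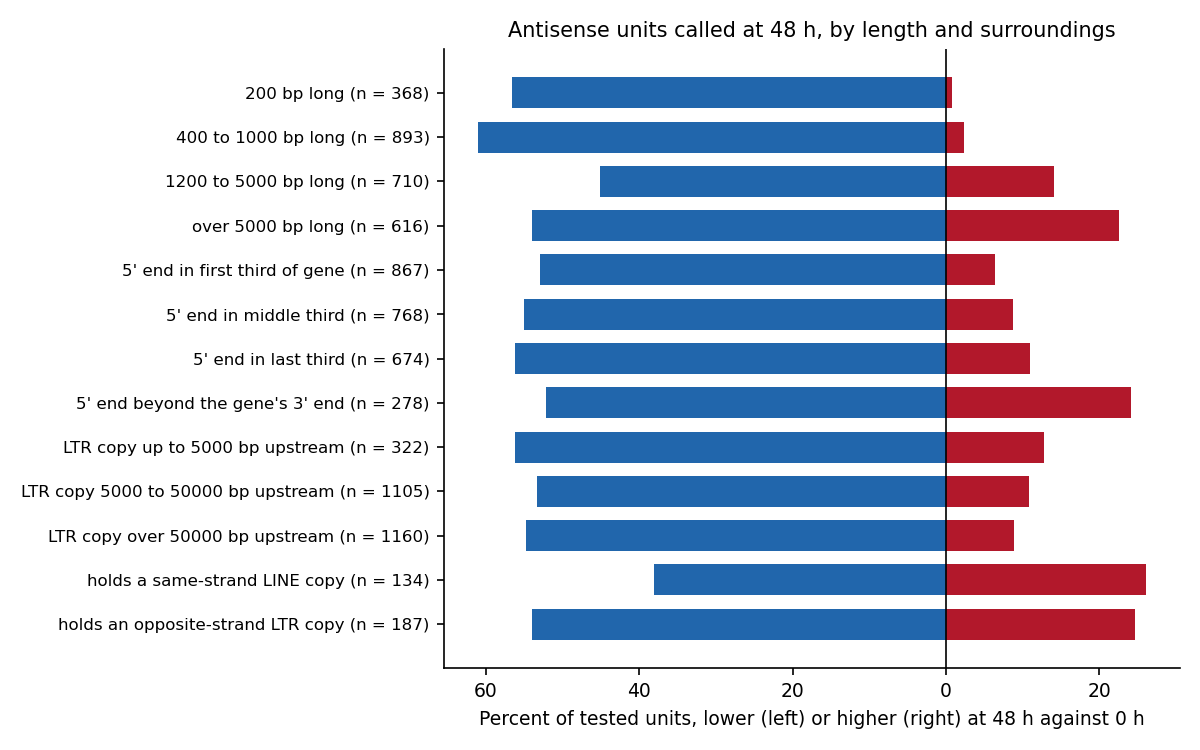
Percent of tested antisense units called higher (red, right) or lower (blue, left) at 48 h against 0 h, by unit length, by the place of the 5′ end in the sense gene, by the distance to the nearest upstream LTR copy on the same strand, and by repeats held; n is the number tested. The share that rose was 22.6% for units over 5000 bp and 0.815% for units of 200 bp, while distance to an LTR copy moved it between 8.88% and 12.7%.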

How the data were processed

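TT-seq libraries from 1 cell line were used. Per the labels' protocols, RNA was labelled with 4-thiouridine and yeast RNA was added as a spike-in; STAR 2.5.2a, DESeq2 and deepTools and the build mm10 (GRCm38) are named in the submitters' processing notes. The deposited values are signal: reads per unit that the authors multiplied by 1 factor per library (0.636 to 0.936 scaled reads per read). The values show this because 99.9972% to 99.9995% were whole multiples within 0.05. The counter, its strand setting, the annotation and whether the factors rest on the spike-in are not stated in the material used. The authors' calls came from a further deposited table, which gives each unit as up, down or unchanged and no number, treated as another unit.

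All non-coding units and, separately, all genes with a mean of at least 10 were fitted with limma 3.58.1 (R 4.3.3, intensity trend, two-sided) on log2(value + 1) over 15 libraries, each later time against 0 h; the 2 runs of a library counted as 1. Fold changes on this scale understate low units. Pairs were fitted on log2(unit + 1) minus log2(gene + 1). Fits used the scaled values; edgeR 4.0.16 and DESeq2 1.42.0 on recovered whole reads, rescaling to the median gene ratio, other minimums and pseudocounts, and leaving out libraries were alternatives. The tests were tried on simulated reads. Named units were the 8 highest and 8 lowest changes at 48 h and 3 and 3 at other times among called units without overlap and with a mean in the upper 75%, the 5 widest pairs each way, the 5 highest means, up to 3 per gene list, the units with microRNA hairpins and annotated antisense RNAs. A few of them are left out of the text. The units, lists and tests were chosen with earlier results of these data known. P-values measure the spread between repeats. Same-numbered repeats did not pair (correlations of deviations −0.0266 to 0.0553). Promoters, microRNAs and annotation came from RefSeq and GENCODE M21.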

Additional observations from a re-analysis of the deposited data

How the results depend on the processing

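The median change of tested antisense units stayed below 0 at 3, 12, 24 and 48 h under every alternative run, and the counts called at 12 h moved by less than 1.5 times. At 3 h, where limma called 311 units, edgeR called 182, DESeq2 81 and the rescaled values 152. With no minimum mean, limma called 2478 units at 24 h and 3298 at 48 h, and 1661 and 1915 pairs. Pairs called at 3 h were 51 with the minimum at 0 h alone and 55 with no trend. Sense genes called at 3 h were 2749 when only the compared times were fitted and 551 with no trend. At 12 h they were 2336 with edgeR, 1802 with DESeq2, 2046 after rescaling and 571 with no trend, and at 24 h 2689, 2490 and 2791 with edgeR, DESeq2 and rescaling. The median change of sense genes at 48 h turned to 0.0155 with DESeq2 and 0.0137 after rescaling. Leaving out 1 library gave 150 to 273, 581 to 729, 1092 to 1304 and 1466 to 1582 units called at 3, 12, 24 and 48 h, 214 to 1475, 436 to 2106, 822 to 2004 and 2809 to 3305 sense genes, and 58 to 71, 618 to 839, 800 to 941 and 893 to 958 pairs. Among named units, Kcnq1ot1 at 12 h turned to −0.1222 after rescaling. At 48 h, edgeR, DESeq2 and rescaling turned the Nlrp12 unit to 0.2176, 0.2026 and 0.2713, the Dnah7b unit to 0.0577, 0.0435 and 0.1125, and the Fsd2 unit to 0.0378, 0.0218 and 0.0928. The causes were not tested. With the replicate number as a block, 331, 852, 1333 and 1671 units and 86, 909, 1026 and 1069 pairs were called at 3, 12, 24 and 48 h, and of 504 changes of named units 498 kept their side of the threshold and 6 passed it newly. Units with low read numbers, 7127 under the minimum, entered limma mostly in the fit with no minimum mean (9713 units).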
